A study of Mus musculus with 8 samples.

Results

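Of the 11911 genes in the deposited count table, 9 are described here: receptors that guide T cells into lymphoid organs and gut, let them leave again, or keep naïve cells alive. They were taken by name and all 9 were present: the sphingosine 1-phosphate receptors S1pr1 and S1pr4, the chemokine receptors Ccr7 and Cxcr4, the integrin subunits Itga4, Itgb7, Itgae and Itgal, and the interleukin-7 receptor alpha chain Il7r. The data are 8 RNA-seq libraries of induced regulatory T cell (iTreg) cultures, 4 per genotype. By the study's methods the controls, labelled WT, come from Foxp3YFP-Cre mice and the knockouts, labelled KO, from TDRD3fl/fl/Foxp3YFP-Cre mice, so that all 8 libraries carry the Cre allele. Cre is made from the Foxp3 locus, so a cell can delete the floxed gene only once it transcribes Foxp3. Naïve CD4+ T cells from spleen were cultured for 36 hours with TGF-β, anti-CD3, anti-CD28, anti-IFN-γ and anti-IL-4. RNA came from the harvested CD4+ cells, for which no sort of YFP+ cells is named, and the age of the mice is not given for these samples. In such bulk RNA, fewer cells that carry a transcript and less of that transcript per cell cannot be told apart.

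A naïve T cell enters lymph nodes through high endothelial venules with the help of the receptor CCR7 and the integrin LFA-1, whose alpha chain is Itgal. It leaves by following sphingosine 1-phosphate through S1PR1, and it survives on IL-7. The alpha 4 and beta 7 chains pair as the gut-homing integrin, and the beta 7 chain also pairs with Itgae (CD103), a TGF-β-induced chain that holds cells at epithelium. The transcription factor KLF2 activates S1pr1, and FOXO1 activates Klf2, Ccr7 and Il7r. The comparison asks how these receptors stand in cultures in which Foxp3-expressing cells can lose TDRD3, and how they stand beside Klf2 in each library.

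Values are normalized CPM, the share of a library's counts that a gene takes on the CPM scale after TMM scaling. The counts of a library sum to between 13258239 and 16001676 and did not differ by genotype beyond the spread (two-sided exact permutation test, p = 0.743). Tdrd3 itself had 18.8, 15.1, 9.95 and 17.7 CPM in the libraries labelled WT1 to WT4 and 13.7, 10.7, 12.9 and 11.1 CPM in those labelled KO1 to KO4. The library labelled WT3 thus had less Tdrd3 than every KO library. Per-gene totals hold no information on the floxed exons. Its log2 fold change was −0.35 ± 0.155 (SE), with an edgeR adjusted p of 0.496. Summed CPM of 5 CD4 T cell markers was 1580 to 1662 in WT and 1542 to 1607 in KO libraries. B cell markers, 3 of 6 with values here, summed to at most 3.71 CPM, and myeloid markers, 2 of 6, to at most 2.11 CPM, with Lyz2 at 0 in WT, at 0.653 CPM in KO1 and at 1.22 CPM in KO4. NK cell, dendritic cell and erythroid lists had 1 marker each with values, at no more than 3.12, 7.60 and 0.911 CPM. The CD8 pair Cd8a and Cd8b1 summed to 21.8 CPM in the library labelled WT3 and to between 6.68 and 9.93 CPM in the other 7.

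Promoter sequences of receptors that stood lower in KO libraries are given first, because KLF and FOXO factors act through short motifs there. The RefSeq promoter table (GRCm38.p6) holds 5 of the 9: Il7r, Itgb7, Itga4, Cxcr4 and S1pr4. S1pr1, Ccr7, Itgae and Itgal have no entry. Of these, Itgb7, Itga4 and S1pr4 had an unadjusted edgeR p below 0.05. The 250 bases before the RefSeq start are printed 5′ to 3′ on the gene's strand for Itgb7 and S1pr4. A GENCODE transcript of Itgb7 begins further upstream and takes in the last 9 of these bases, and one of Itga4, whose window is not printed, takes in the last 110. Capitals mark the KLF core CACCC or its reverse complement GGGTG.

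Itgb7 (chr15:102231936-102232185, minus strand): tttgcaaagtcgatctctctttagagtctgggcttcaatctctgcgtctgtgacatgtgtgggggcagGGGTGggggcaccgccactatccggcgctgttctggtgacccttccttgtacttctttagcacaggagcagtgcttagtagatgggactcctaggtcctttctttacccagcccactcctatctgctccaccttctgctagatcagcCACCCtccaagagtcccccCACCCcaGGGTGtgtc

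S1pr4 (chr10:81500138-81500387, minus strand): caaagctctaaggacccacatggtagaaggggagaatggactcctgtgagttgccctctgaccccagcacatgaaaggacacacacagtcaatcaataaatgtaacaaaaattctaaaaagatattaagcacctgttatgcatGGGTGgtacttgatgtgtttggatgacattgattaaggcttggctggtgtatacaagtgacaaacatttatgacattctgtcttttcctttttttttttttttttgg

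The core occurred 4 times before the RefSeq start of Itgb7, the nearest ending 5 bases from that start. It occurred 4 times before Itga4, the nearest at 23 bases, and 1 time before S1pr4, at 103 bases. Cxcr4 had 1 and Il7r had 0. The nearest core of Itgb7 and the 3 CACCC matches of Itga4 lie within the bases that a GENCODE transcript takes in. Bases shortly after the RefSeq start of Il7r were not found in its GENCODE transcripts, so its window may not lie before a GENCODE start. The same core lies in 52.0% of the 32851 promoters of the table and in 4 of the 5 receptor promoters. The FOXO motif TGTTTAC or its reverse complement GTAAACA was in 0 of the 5 windows and in 3.17% of all. The window before Klf2, a gene that FOXO1 activates, held 0 as well. A GENCODE transcript of Klf2 takes in the last 180 bases of this window. The Klf2 promoter studied in the paper reaches further upstream. These matches describe letters in a window and not bound sites.

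None of the 9 receptors was called. In the quasi-likelihood test of edgeR, adjusted by Benjamini-Hochberg, 0 of 9 had an adjusted p below 0.05, beside 0.265% of the 11317 tested genes. At an unadjusted p below 0.05, 4 of 9 were lower in KO libraries, S1pr1, Itgb7, Itga4 and S1pr4, beside 4.91% of tested genes in that direction, and 0 of 9 were higher, beside 4.38%. With a fold change of at least 1.2 added, S1pr1 and Itgb7 stayed, 2 of 9, against 1.7% of tested genes in that direction. DESeq2 called 1 of the 9, S1pr1, and 0.76% of the 10656 genes it gave an adjusted p. The voom fit of limma with quality weights called 2, S1pr1 and Itgb7, and 0.839% of tested genes. The median log2 fold change of the 9 was −0.05, beside 0.0013 over all tested genes. The count at the 1.2-fold cutoff was 4 without KO2, 1 without KO4, WT1, WT2 or the library labelled WT3, and 0 without KO1 and KO4 together. Without the library labelled WT3, the log2 fold changes of S1pr1, Itgb7, Itga4 and S1pr4 were −0.26, −0.37, −0.26 and −0.10.

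**Figure D1:**
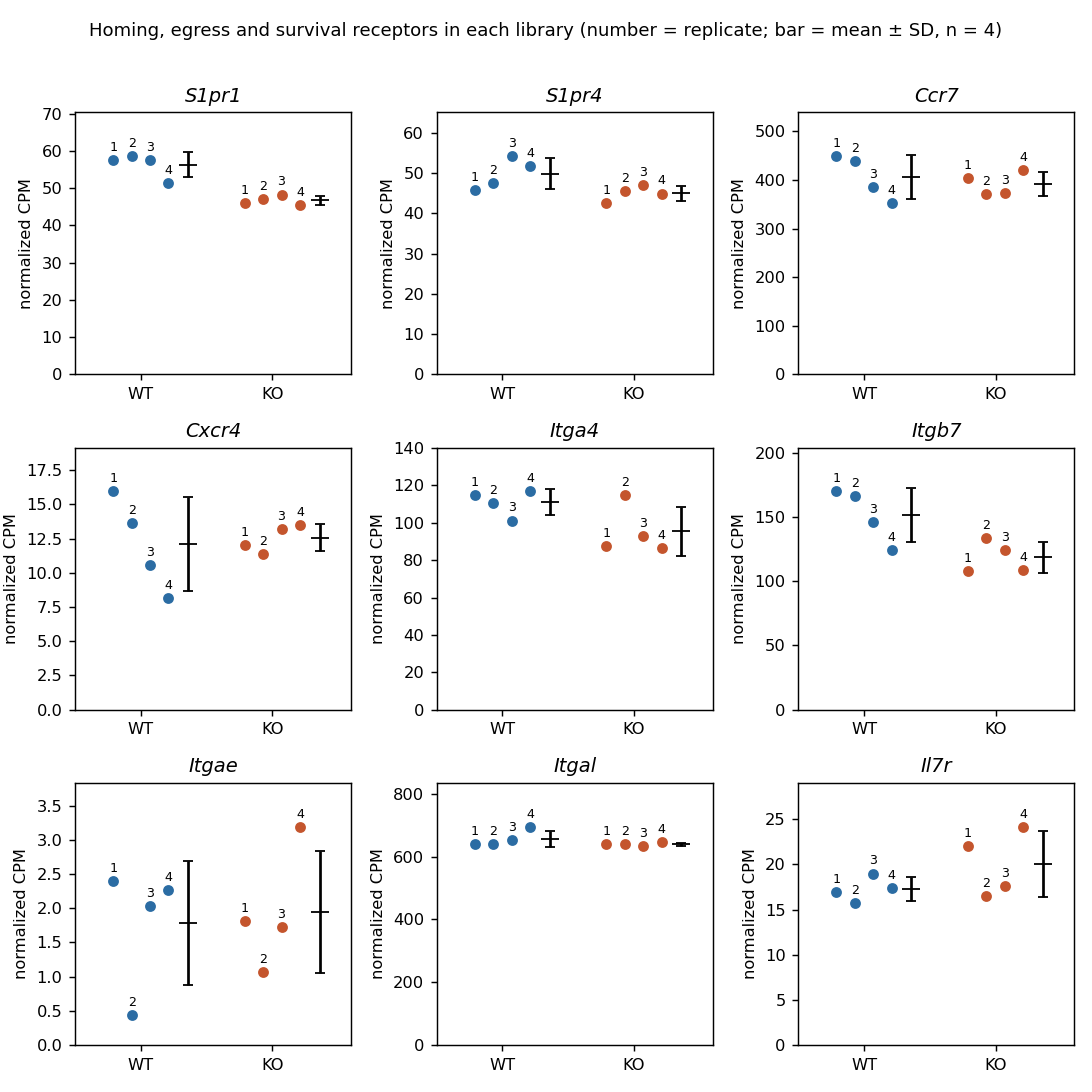
Normalized CPM of the 9 receptors (vertical axes, each from 0) in 4 WT and 4 KO libraries. Points are libraries, numbers are replicates, and bars are means with SD. S1pr1 is the panel in which all 4 KO points lie below all 4 WT points.

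S1pr1 (ENSMUSG00000045092, GRCm39 chr3:115504082-115508721, minus strand), the receptor that lets lymphocytes exit lymphoid tissue, had 57.7, 58.6, 57.5 and 51.4 CPM in the libraries labelled WT1 to WT4 and 46.0, 47.1, 48.3 and 45.5 CPM in KO1 to KO4. Every KO library lay below every WT library, and the KO libraries lay closer to each other than the WT libraries did. Such a separation with KO lower was found in 2.63% of tested genes, and S1pr1 was the only one of the 9 to show it. The mean was 56.3 ± 3.31 (SD, n = 4) in WT and 46.7 ± 1.25 (SD, n = 4) in KO, which is 17.0% less. The two-sided exact permutation test gave p = 0.0286, the smallest that 4 against 4 allows. Its log2 fold change was −0.27 ± 0.0600 (SE), with an unadjusted edgeR p of 2.48e-04 and an adjusted p of 0.0671. The adjusted p was 0.0160 with DESeq2 and 0.0252 with limma voom. It passed in edgeR without WT4, at 0.0145, or without KO2, at 0.0466. With other single libraries left out the adjusted p rose to as much as 0.309. The log2 fold change of S1pr1 stayed between −0.31 and −0.24 over the 16 settings compared.

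S1pr4 (ENSMUSG00000044199, chr10:81333581-81335966, minus strand), a lymphocyte receptor for the same lipid, had 45.9, 47.5, 54.3 and 51.9 CPM in the WT libraries and 42.5, 45.6, 47.0 and 45.0 CPM in the KO libraries. KO1, KO2 and KO4 lay below all WT values, and KO3 lay above WT1. Its log2 fold change was −0.15 ± 0.0657 (SE), with an unadjusted edgeR p of 0.0367 and an adjusted p of 0.496 (two-sided exact permutation test on the 4 against 4 values, p = 0.0571). Without the library labelled WT3 the unadjusted p of S1pr4 was 0.134.

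Itgb7 (ENSMUSG00000001281, chr15:102124430-102140379, minus strand), the beta chain of the gut-homing integrin, had 170, 167, 146 and 124 CPM in WT1 to WT4 and 108, 133, 124 and 109 CPM in KO1 to KO4. KO1 and KO4 were the lowest of the 8, and KO2 alone reached above the lowest WT library, WT4. The mean was 152 ± 21.2 (SD, n = 4) against 119 ± 12.3 (SD, n = 4), the largest log2 difference of the 9 with all libraries included. Its log2 fold change was −0.35 ± 0.0821 (SE), with an unadjusted edgeR p of 3.69e-04 and an adjusted p of 0.0760, and the exact permutation test gave 0.0571. The adjusted p was 0.0030 without WT4, 0.0107 without KO2 and 0.0166 with limma voom. In edgeR it rose to as much as 0.352 with another single library left out.

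Its partner Itga4 (ENSMUSG00000027009, chr2:79085770-79163467, plus strand) showed a similar order among the KO libraries. It had 115, 111, 101 and 117 CPM in WT and 87.6, 115, 92.7 and 86.6 CPM in KO, so that KO2 stood within the WT range and the other 3 KO libraries below it. KO libraries differed from WT by a log2 fold change of −0.22 ± 0.0738 (SE), with an unadjusted edgeR p of 0.00877 and an adjusted p of 0.297. Without KO2 the log2 fold change was −0.32 and the adjusted p 0.0054. Leaving out another single library gave an edgeR adjusted p as high as 0.783. The exons of Itga4 overlap those of Cerkl on the opposite strand over 3481 bases and 7 of its 8 estimated counts are not whole numbers, so part of its reads may have been divided between genes.

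The chain that alternatively pairs with beta 7, Itgae (ENSMUSG00000005947, chr11:72981409-73038272, plus strand), was barely detected. It had 2.40, 0.44, 2.03 and 2.27 CPM in WT and 1.82, 1.07, 1.73 and 3.19 CPM in KO, from 6 to 47 counts. The highest and the lowest library were KO4 and WT2, and no difference was detectable at this depth (log2 fold change 0.12, standard error 0.402, adjusted p = 0.956 in edgeR).

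Itgal (ENSMUSG00000030830, chr7:126895432-126934310, plus strand), the LFA-1 alpha chain, was the steadiest of the 9. It had 639, 640, 653 and 695 CPM in WT and 640, 639, 633 and 645 CPM in KO, and the SD among KO libraries was 0.804% of their mean. The genotypes overlapped, and the log2 fold change was −0.04 ± 0.0368 (SE), with an edgeR adjusted p of 0.843. None of its 8 counts is a whole number.

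Ccr7 (ENSMUSG00000037944, chr11:99035022-99045903, minus strand), the receptor for the lymph node chemokines CCL19 and CCL21, had 449, 439, 386 and 352 CPM in WT and 404, 370, 372 and 421 CPM in KO. All KO values lay within the WT range. The log2 fold change was −0.05 ± 0.0628 (SE), with an edgeR adjusted p of 0.879.

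Cxcr4 (ENSMUSG00000045382, chr1:128515936-128520030, minus strand), the receptor for CXCL12, likewise kept all KO values inside the WT range. It had 15.95, 13.7, 10.6 and 8.14 CPM in WT and 12.1, 11.4, 13.2 and 13.5 CPM in KO. The SD was 3.43 CPM in WT and 0.990 CPM in KO, and the log2 fold change was 0.05 ± 0.157 (SE), with an edgeR adjusted p of 0.953 and a turn below 0 without the library labelled WT3, without WT4 or with limma voom.

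Il7r (ENSMUSG00000003882, chr15:9505874-9530262, minus strand), which receives the survival signal of IL-7, had 17.0, 15.7, 19.0 and 17.4 CPM in WT and 22.0, 16.5, 17.6 and 24.2 CPM in KO. KO1 and KO4 were above every WT library, while KO2 and KO3 were within the WT range. Its log2 fold change was 0.21 ± 0.115 (SE), with an unadjusted edgeR p of 0.0777 and an adjusted p of 0.614. Without KO1 and KO4 it was −0.02.

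**Figure D2:**
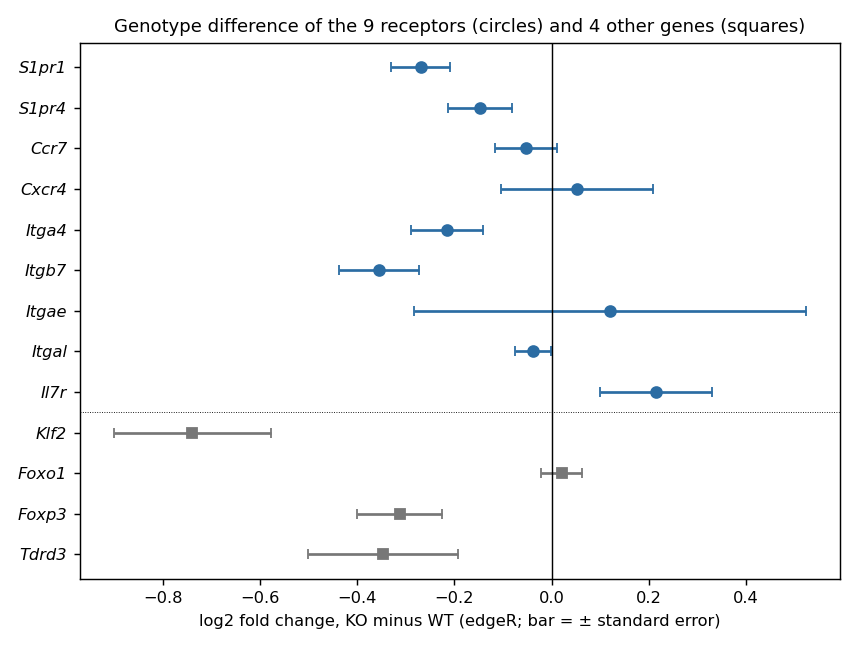
Log2 fold change, KO minus WT, from edgeR (horizontal axis) with its standard error for the 9 receptors (circles) and for Klf2, Foxo1, Foxp3 and Tdrd3 (squares). Among the receptors the values run from −0.35 for Itgb7 to 0.21 for Il7r, and Itgae has the widest error at 0.402.

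Set per kilobase of exon, a rough allowance for gene length, the receptors spanned a wide range of levels in either genotype. In WT libraries Ccr7 had 205 ± 22.9 CPM per kb (SD, n = 4), Itgal 99.9 ± 4.00, Itgb7 52.3 ± 7.30, S1pr4 20.9 ± 1.62 and S1pr1 13.6 ± 0.801, with no overlap between neighbours in this order. Cxcr4 at 6.64 ± 1.88 and Itga4 at 6.63 ± 0.417 CPM per kb could not be ordered. Il7r followed at 3.71 ± 0.290 and Itgae at 0.286 ± 0.146 CPM per kb. The order was the same in KO means, where the ranges of Il7r and Itga4 overlapped as well. In WT means, Ccr7 stood above 99.2% of the tested genes per kb, and Il7r above 37.9%. Exon lengths join all GENCODE exons of a gene, whichever transcripts are expressed, and Itga4, at 16.7 kb, is the longest. The place of Itga4 rests on this length, since before division its WT mean was 111 CPM beside 56.3 for S1pr1.

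**Figure D3:**
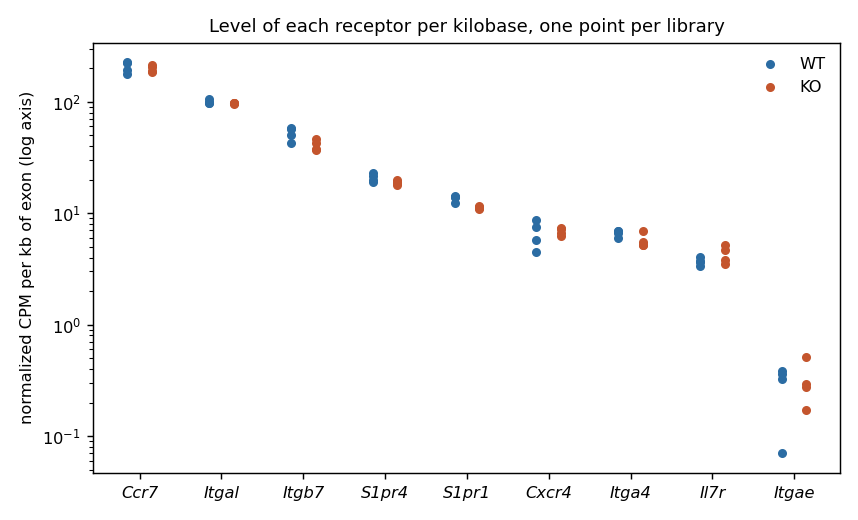
Normalized CPM per kb of exon on a log axis for the 9 receptors, ordered by WT mean, with 1 point per library (WT left, KO right). Ccr7 is highest at 177 to 226 in WT and Itgae lowest at 0.0701 to 0.385.

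Klf2 (ENSMUSG00000055148) had 51.2, 58.9, 63.0 and 54.6 CPM in the libraries labelled WT1 to WT4 and 22.2, 45.3, 44.3 and 24.4 CPM in KO1 to KO4. KO1 and KO4 were set apart, with a gap of 0.850 on the log2 scale to the next library where the next largest gap was 0.177. They were also the KO pair most alike across genes, with a chi-square per degree of freedom of 2.59 between their counts. The other KO pairs had 3.79 to 4.85. Because the libraries form separate clusters in Klf2, correlations with Klf2 were taken over the other 6 only, which are WT1 to WT4, KO2 and KO3. The difference in Klf2 was called in edgeR without KO2, WT4 or KO3, with adjusted p-values of 0.0035, 0.0426 and 0.0389. Its adjusted p reached 0.276 with another single library left out. Over the 16 settings compared, other tools and the replicate block among them, the adjusted p of Klf2 was below 0.05 in 5. Foxo1 had 229, 234, 210 and 229 CPM in WT and 231, 225, 225 and 235 CPM in KO, a log2 fold change of 0.02 ± 0.0421 (SE).

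The receptors showed different patterns beside Klf2. S1pr1 varied little across the KO libraries: KO1 and KO4, at 22.2 and 24.4 CPM of Klf2, had 46.0 and 45.5 CPM of S1pr1, and KO2 and KO3, at 45.3 and 44.3 CPM of Klf2, had 47.1 and 48.3. KO1 and KO4 were still the lowest of the 8 for S1pr1, as they were for S1pr4, Itgb7 and Itga4, and Il7r was highest there. Ccr7, Itgal and Cxcr4 in KO1 and KO4 were within the WT range. Without KO1 and KO4 the log2 fold change of S1pr1 was −0.24, from −0.27 with all libraries, that of Itgb7 was −0.24, from −0.35, and that of Itga4 was −0.09, from −0.22. Klf2 itself went from −0.74 to −0.35. In that reduced set none of the 9 had an adjusted p below 0.05 in edgeR, and whether the receptors differ in this respect was not tested. Whether the receptor values in KO1 and KO4 go with Klf2 or with the wider likeness of these libraries was not tested either.

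Over the 6 libraries, Pearson's r with Klf2 was 0.82 for S1pr1 (exact permutation p = 0.0653, adjusted over the 9 relations 0.556) and Spearman's rho was 0.66 (exact permutation p = 0.175, adjusted 0.525). For S1pr4, r was 0.73 (exact permutation p = 0.124, adjusted 0.556) and rho 0.77 (exact permutation p = 0.103, adjusted 0.463). Without the library labelled WT3 and KO3, the farthest from the median Klf2, r was 0.75 for S1pr1 and 0.52 for S1pr4 over 4 libraries. Itgal had the highest rho of the 9, 0.83 (exact permutation p = 0.0583, adjusted 0.463), with an r of 0.37. The other 6 receptors had r between −0.24 and 0.46 and rho between −0.26 and 0.49, and the smallest adjusted p of r or rho over all 9 was 0.463. These 6 libraries still hold both genotypes, which differ in Klf2 and in S1pr1 without overlap, so a relation within a genotype could not be assessed.

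**Figure D4:**
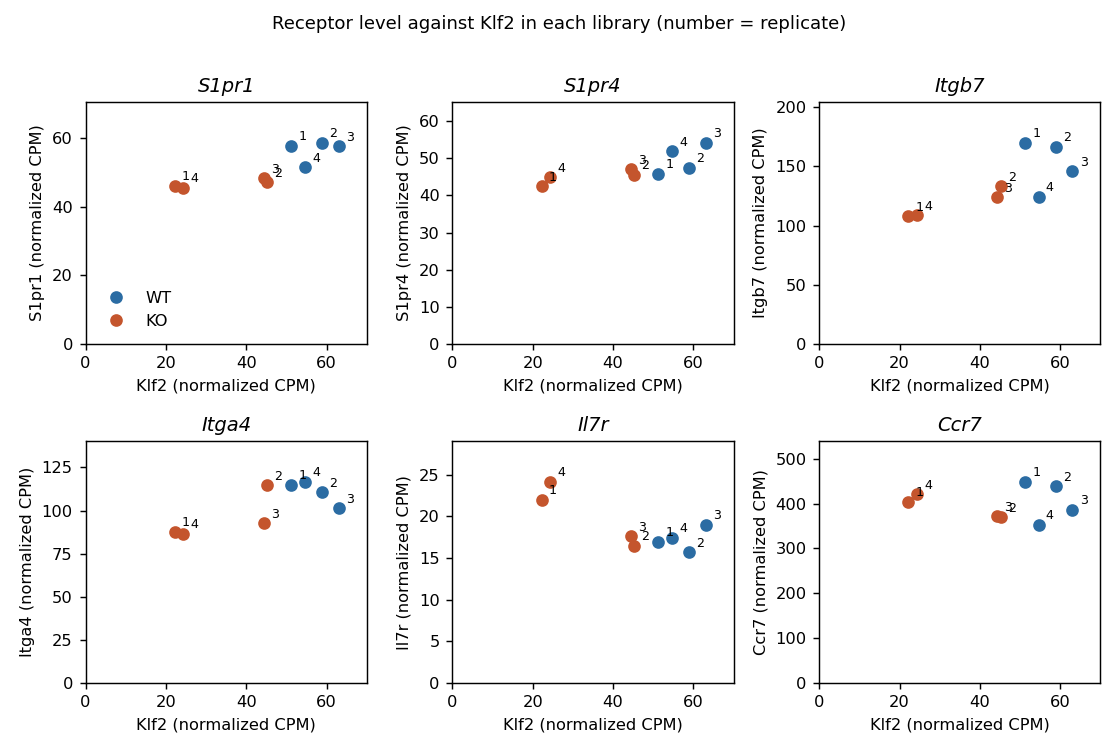
Receptor level against Klf2, both in normalized CPM, with 1 point per library and the replicate number beside it. KO1 and KO4 lie apart at 22.2 and 24.4 CPM of Klf2, where Itgb7 and Itga4 are at their lowest and Il7r at its highest, while S1pr1 differs little among the 4 KO libraries and Ccr7 stays within the WT range.

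As a description of likeness, genes were ordered by their r with Klf2 over all 8 libraries, which share genotype and the position of KO1 and KO4. Of 11316 genes, Foxp3 was at position 169 from the top, S1pr1 at 337, Itgb7 at 375, Itga4 at 420 and S1pr4 at 454. Itgal was at 3305, Ccr7 at 6889, Cxcr4 at 7391 and Itgae at 8819. Il7r was at position 227 from the bottom. The genes most like S1pr1 by the same measure were Tent5a (r = 0.98), Klhl25 (0.97), Mid1 (0.96), Anxa6 (0.96) and Igtp (0.96), over 8 libraries. Tent5a and Mid1 had adjusted p-values of 0.0051 and 0.0064 in edgeR, with log2 fold changes of −0.37 and −0.61, and that of Mid1 was 0.0544 without WT1 and 0.0571 without KO1.

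Other homing genes were read from lists of related genes. Of the 15 tested selectin ligand and adhesion genes, 0 were called, and 3 were lower and 1 higher at an unadjusted p below 0.05. Over all tested genes, 4.91% were lower and 4.38% higher at that threshold. The 1.2-fold cutoff kept Icam2 on the lower side and, on the higher side, Chst2, a carbohydrate sulfotransferase. Icam2, a ligand of LFA-1, had a log2 fold change of −0.29 ± 0.125 (SE), and Chst2 one of 0.31 ± 0.127 (SE). In 2 of the 15, Icam1 at −0.20 and the selectin-ligand enzyme Fut7 at −0.24, all KO libraries lay below all WT libraries. Over all tested genes 2.63% did so, and Icam1 and Fut7 were picked out after their values were seen. In all lists together, 5 of 119 tested genes were separated with KO lower and 1 with KO higher, beside 298 and 255 of 11317. Selplg (PSGL-1) and Spn (CD43), the most abundant of the list, had log2 fold changes of −0.12 and 0.0047.

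Among 13 tested chemokine and chemoattractant receptors, 0 were called and 1 passed the unadjusted p and the fold cutoff, in the higher direction. This was Gpr15, a receptor for homing to the large intestine, with 9.24, 8.80, 8.41 and 12.4 CPM in WT and 15.6, 11.7, 13.5 and 21.4 CPM in KO. KO4 and KO1 were the highest of the 8, and KO2 stood below WT4. Its log2 fold change was 0.68 ± 0.166 (SE), with an unadjusted edgeR p of 6.21e-04 and an adjusted p of 0.0913. The adjusted p of Gpr15 was 0.0118 without KO2, 0.0255 without WT4 and 0.0232 with DESeq2. In edgeR it reached 0.395 with another single library left out. Ccr4 and the prostaglandin receptor Ptger4, the most abundant, had log2 fold changes of −0.04 and −0.02.

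Of 13 tested integrin subunits, 0 were called and 1 passed the unadjusted p and the fold cutoff, on the lower side: Itga6, a laminin-binding chain. It had 117, 120, 103 and 103 CPM in WT and 79.9, 105, 92.2 and 72.7 CPM in KO, a log2 fold change of −0.34 ± 0.0852 (SE), with an edgeR adjusted p of 0.102. KO2 alone was within the WT range, and without it the adjusted p of Itga6 was 0.0035. Another single library left out gave an edgeR adjusted p as high as 0.436. The partner chains Itgb1 and Itgb2, the most abundant, had log2 fold changes of −0.04 and −0.05. Of the 10 tested genes of sphingosine 1-phosphate metabolism and sensing, 0 had an unadjusted p below 0.05, and Sgpp1 and Cers2 had log2 fold changes of −0.10 and 0.05.

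Of the 35 tested genes of integrin activation and chemokine signalling, 0 were called and 0 passed the 1.2-fold cutoff, with 3 lower and 1 higher at an unadjusted p below 0.05 and a median log2 fold change of −0.02. The actin regulators Coro1a and Msn, the most abundant, each had a log2 fold change of −0.05. Among 14 IL-7 receptor partners and survival genes, 0 were called, 1 was lower and 2 higher at an unadjusted p below 0.05, and Gfi1, a transcriptional repressor, was higher at the fold cutoff, with a log2 fold change of 0.31 and a standard error of 0.132. Cish and Ets1, the most abundant there, had −0.07 and −0.11. Of 19 genes around KLF2 and FOXO1, 0 were called, 3 were lower and 0 higher at an unadjusted p below 0.05, and Klf2 was lower at the fold cutoff, at −0.74 ± 0.161 (SE), with an edgeR adjusted p of 0.0617. Tcf7 and Lef1, the most abundant there, had log2 fold changes of 0.0036 and −0.10. At the cutoff, 1.7% of tested genes were lower and 1.78% higher, beside 3 and 3 of the 119 tested genes in all lists together. At an unadjusted p below 0.05 alone, 4.91% of tested genes were lower and 4.38% higher, beside 11 and 5 of those 119.

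**Figure D5:**
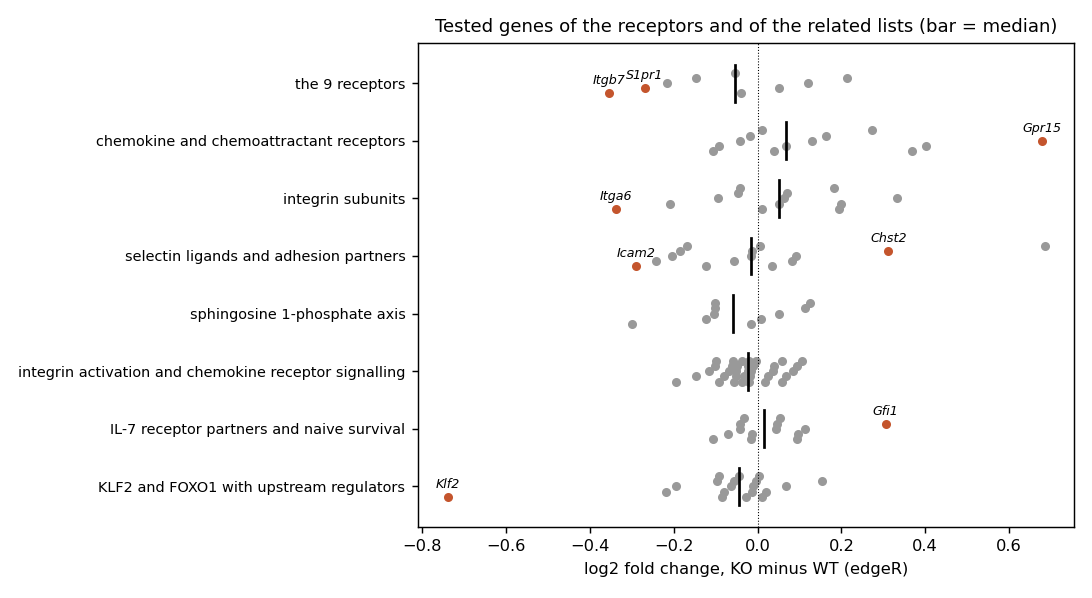
Log2 fold change, KO minus WT (horizontal axis), of each tested gene of the 9 receptors and of the 7 related lists, with the median of each as a bar. Coloured and named points passed the 1.2-fold cutoff, and Klf2 is the farthest of these on the lower side and Gpr15 on the higher.

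Foxp3, which marks the regulatory T cell state, had 117, 122, 107 and 93.8 CPM in WT and 77.2, 105, 93.2 and 78.1 CPM in KO, lowest in KO1 and KO4 like Itgb7 and Itga4. The genotypes differed in Foxp3 by −0.31 on the log2 scale, with a standard error of 0.0880 and an edgeR adjusted p of 0.152. All 8 of its counts are not whole, and its exons overlap other genes. Without KO2 or WT4 the edgeR adjusted p of Foxp3 was 0.0104 or 0.0337, and with another single library left out it reached 0.591. The 6 of 6 regulatory T cell markers summed to between 3533 and 3701 CPM in WT and between 3348 and 3456 CPM in KO, and the 6 of 6 activation markers to between 4539 and 4763 CPM and between 4255 and 4536 CPM. Neither sum overlapped between genotypes, but both rest on Il2ra, a marker of both lists with 2179 to 2370 CPM in WT and 2025 to 2169 CPM in KO. Without Il2ra, a comparison chosen after seeing the data, the sums were 1262 to 1393 CPM in WT and 1287 to 1326 CPM in KO for the regulatory markers, and 2304 to 2393 and 2229 to 2368 CPM for the activation markers, and both overlapped. Among the other regulatory markers Ctla4 was highest in KO1 and KO4, and Tnfrsf18 and Capg were lowest in WT4. Ikzf2 was below every WT library in KO1, KO2 and KO3. The log2 fold change was −0.14 for Ikzf2 (edgeR adjusted p = 0.433), −0.06 for Tnfrsf18, −0.04 for Capg and 0.06 for Ctla4. The part of Foxp3 and Il2ra in the receptor values was not tested.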

How the data were processed

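RNA of 4 Foxp3YFP-Cre (WT) and 4 TDRD3fl/fl/Foxp3YFP-Cre (KO) cultures was sequenced after ribosomal depletion. The authors aligned reads to GRCm39 with STAR 2.7.8a and estimated counts per gene with the Partek Flow E/M algorithm. The deposited estimated counts are filtered and not normalized, 43.0% of the values are not whole, and strandedness of counting is not given in the sources used here. Libraries were grouped by their labels, which give 4 per genotype where the Methods give 3. The Methods describe replicates as independent mice.

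Estimated counts were rounded. edgeR 4.0.16 in R 4.3.3 kept 11317 of 11911 genes (filterByExpr, minimum count 10), scaled by TMM and tested genotype alone (glmQLFit, glmQLFTest, two-sided, Benjamini-Hochberg over all tested genes). A gene was called at an adjusted p below 0.05. Single values were compared by exact permutation over 70 arrangements of log2(CPM + 0.5). In a library, 3 counts are 0.188 to 0.225 CPM, a limit of counting error only. No replicate pair of a genotype agreed within sampling noise (chi-square per degree of freedom 2.59 to 6.32). The lowest values were 2.59 for KO1 with KO4 and 2.70 for WT1 with WT2.

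The receptors and lists were chosen with earlier results of these data known. Named genes are the 9 receptors, Klf2, Foxo1, Tdrd3, Foxp3 and, from each list, genes at an unadjusted p below 0.05 with a fold change of at least 1.2 and the 2 most abundant, together with the 5 genes most like S1pr1. Alternatives were DESeq2 1.42.0, limma 3.58.1 voom, other scalings and filters, the replicate number as a block and libraries left out. The fit was tested on simulated counts. 1 gene of the lists is not reported here. Exons came from GENCODE M39, which holds 11910 of the 11911 identifiers, coordinates of genes from the deposited table, and promoters from RefSeq.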

Additional observations from a re-analysis of the deposited data

Results flagged for a closer look

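S1pr1 in WT4, at 51.4 CPM, lay apart from the other 3 WT libraries, with a gap of 0.849 of the group's range, past Dixon's critical value. It was still above all KO libraries. Chance flags about 1 in 20 groups, and 26 groups were examined.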

How the results depend on the processing

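Scaling by DESeq2 size factors or library size alone, and either filter on low counts, left every count of called receptors at 0. In edgeR 30 of all tested genes were called, and 81 with DESeq2, 95 with limma voom, 87 with the replicate block and 3 without KO1 and KO4. Of the receptors, 1 was called with DESeq2, 2 with limma voom and 1, Itgb7, with the block. Leaving out single libraries gave 0 to 3 called receptors, 1 to 4 at the 1.2-fold cutoff, and, over all tested genes, 6 to 162 called, where each of the 8 libraries moved the count by over 1.5 times, and 302 to 530 at that cutoff. Without KO1 and KO4 the cutoff held for 0 receptors and 235 genes, with fewer samples in the fit. Directions turned as follows: without KO1 and KO4, Il7r was −0.023, Itgae −0.37, Spn −0.030 and Foxo1 −0.0061, and with limma voom Cxcr4 was −0.0093 and Tcf7 −0.00061. With single libraries left out, log2 fold changes ran from −0.23 to 0.33 for Itgae, −0.098 to 0.22 for Cxcr4, −0.011 to 0.039 for Foxo1, −0.079 to 9.8e-05 for Ccr4, −0.019 to 0.023 for Spn and −0.010 to 0.016 for Tcf7. The r with Klf2 turned to −0.26 for Il7r, −0.48 for Itga4 and 0.0022 for Cxcr4 over 4 libraries, and to 0.0080 for Itgae on linear CPM. The cause of these shifts was not tested. Deviations of same-numbered libraries correlated at −0.046, 0.0040, −0.042 and 0.069. These values showed no pairing by replicate number, but with 4 libraries per genotype they cannot exclude it. With the replicate block, the log2 fold change of Itgb7 was −0.35 with an adjusted p of 0.0062, and that of S1pr1 −0.27 with an adjusted p of 0.056. The block also gave adjusted p-values of 8.8e-04 for Klf2, 0.0062 for Gpr15, 0.0092 for Itga6 and 0.016 for Foxp3. Depth limits Itgae, at 6 to 47 counts, which could not be tested with at least 10 counts in every library.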
